A study of Mus musculus with 2 samples.

Results

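The mRNAs described here are 10 of the galectins, S100 proteins and annexins that NIH3T3 mouse fibroblasts express: Lgals1, Lgals3, S100a4, S100a6, S100a10, S100a11, Anxa1, Anxa2, Anxa5 and Anxa6. They were found by their gene name on the transcript spots of both arrays, and 12 of the 41174 transcript probes carry one of these names. The group was chosen by the change of Lgals1, which was among the largest falls in polysome share on these arrays. The values below that rest on the same contrast are therefore a description of these 10 mRNAs and support nothing by themselves.

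NIH3T3 cells, an established line of mouse embryo fibroblasts, were grown with 10% bovine serum on 4 plates. The control cells received no thapsigargin, and the stressed cells received 10 µM thapsigargin for 3 h. The lysates of both conditions were run through sucrose gradients of 10 to 40%, and the gradient was pooled into polysomes (P) on one side and free RNA together with monosomes (FM) on the other. Each condition was measured on 1 two-colour array, with P RNA in Cy3 and FM RNA in Cy5, and each array held RNA from 3 pooled preparations. With 1 array per condition no difference was tested against the spread between preparations, and no p-value is given.

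Galectins are sugar-binding proteins that attach to β-galactosides on glycoproteins, both inside cells and at their surface. S100 proteins are small calcium sensors with EF hands that act mostly as dimers, and annexins bind acidic phospholipids of membranes when calcium is high. Members of all these families are made in the cytosol without a signal peptide, and several S100 proteins dock onto the tail of an annexin, as S100a10 does on Anxa2 and S100a11 on Anxa1. Thapsigargin blocks the calcium pump of the endoplasmic reticulum, which empties its calcium store, and the resulting stress is known to slow the initiation of translation.

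The measure of translation efficiency is log2 P/FM, in which the P signal of a spot is divided by its FM signal after subtraction of the local background, on the log2 scale. A averages the log2 P and the log2 FM signal and follows the amount of an mRNA relative to the RNA labelled. That total was 300 ng on each array, so A does not give an amount per cell. The change is thapsigargin minus control throughout. The spread available is that between probes of one mRNA, with a median standard deviation (SD) over 3438 mRNAs of 0.29 for control log2 P/FM, 0.28 after thapsigargin and 0.32 for the change. It covers error within an array and not the spread between preparations.

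Of the 8 fibroblast markers, all 8 had A above 4.5 on both arrays, the level above which an mRNA was taken as measured, as against 0 of 4 epithelial and 0 of 3 endothelial markers, 1 of 3 blood markers (Cd3e) and 1 of 3 macrophage markers (Cd68). A was higher in stressed cells for 7 of 7 genes of the endoplasmic reticulum stress response, by 0.79 to 4.19. Between 42.5% and 46.3% of the 43379 transcript spots were well above background in a channel, and no spot was saturated. Among 10033 coding mRNAs measured on both arrays, the median change in log2 P/FM was -0.71 and that in A was 0.37. Other settings moved the first of these by -0.39 to 2.55, the most with spike-in scaling, so changes are also given relative to it.

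Each of the 10 mRNAs was well above background in both channels on both arrays, so the ratios of their RefSeq accessions rest on measured signals. The probes are 60 bases long and were printed as 1 spot each. Anxa2 was read by 2 probes of its RefSeq accession and the other 9 mRNAs by 1. The probes of the mRNAs that moved most among those taken to be read in coding sequence, and of the annexins that did not follow them, are shown because each value rests on this stretch of the transcript. They run 5′ to 3′ as on the array, with positions on mm9. Capitals mark whole codons where a single reading frame was free of stop codons across the probe, and the probes without capitals were open in 2 frames.
Lgals3: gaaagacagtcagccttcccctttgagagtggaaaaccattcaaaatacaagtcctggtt
S100a6: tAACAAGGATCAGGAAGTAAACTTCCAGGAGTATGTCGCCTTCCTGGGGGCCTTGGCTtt
Anxa1: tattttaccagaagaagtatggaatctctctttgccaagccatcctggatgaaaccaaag
Anxa2, first probe: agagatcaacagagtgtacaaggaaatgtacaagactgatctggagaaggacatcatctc
Anxa2, second probe: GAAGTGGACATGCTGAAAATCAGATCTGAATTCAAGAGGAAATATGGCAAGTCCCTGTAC
Anxa6: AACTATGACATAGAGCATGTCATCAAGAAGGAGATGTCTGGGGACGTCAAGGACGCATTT

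The Lgals3 probe (plus strand) maps to chr14:48004398-48005214, the Anxa1 probe (minus strand) to chr19:20448248-20449761 and the first Anxa2 probe (plus strand) to chr9:69330846-69331620. These 3 stretches are longer than the probe, so each probe joins pieces of the transcript that are separated in the genome. The S100a6 probe lies on chr3:90418160-90418219 (plus strand), the second Anxa2 probe on chr9:69337510-69337569 (plus strand) and the Anxa6 probe on chr11:54798588-54798647 (minus strand), each in 1 piece.

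Without normalization, most of the 10 mRNAs had more P than FM signal in control cells and less P than FM signal after thapsigargin. The level after thapsigargin depended on the scaling, as 7 of 10 lay below 0 in log2 P/FM after thapsigargin, but 2 with the scanner-processed signals, 3 after loess, 1 with channel totals and 0 with spike-in scaling. Their median log2 P/FM was 1.58 in control cells and -0.60 in stressed cells, against 0.34 and -0.29 for all coding mRNAs. In control cells 9 of 10 lay at or above 0, as did 63.5% of all coding mRNAs, and the exception was S100a4. Lgals1, Anxa1 and Anxa2 lay at 2 or more, which 3.30% of all mRNAs reached. In stressed cells Anxa1, Anxa5 and Anxa6 were the 3 that still lay at or above 0 without normalization, where 37.4% of all mRNAs lay. The number at or above 0 was 8 with the scanner-processed signals and 10 with spike-in scaling, and Anxa6 was at -0.50 when its second probe was averaged in. The shares of all mRNAs above or below 0 were not computed for these other settings, so whether these counts are particular to the members was not tested. Spike-in scaling moved the median change of all coding mRNAs to 1.84.

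The median change of the 10 mRNAs was -1.38, or -0.67 relative to the median of all mRNAs, and all 10 values were below 0, as were 70.7% of all mRNAs. A change of -0.8 or lower, the threshold the study used for stress-sensitive mRNAs, was met by 9 of 10, and by 47.0% of all coding mRNAs. Anxa5 was nearest inside that threshold at -1.03, and S100a4 lay outside it at -0.27. Without normalization none combined a control value at or below 0 with a gain of 1 or more under stress, a pattern of 8.86% of all mRNAs. After loess S100a4 did, with a control value of -0.92 and a change of 2.08. Anxa1 was the single member at 0.8 or more on both arrays without normalization, as 3.00% of all mRNAs were. S100a4, S100a6 and Anxa5 joined it with the scanner-processed signals, and further members did with spike-in scaling and channel totals. Anxa5 alone joined it after loess (0.87 in control and 1.40 in stressed cells) and after centring (1.39 and 0.95). The shares of all mRNAs meeting these 2 rules were not computed for those settings. Without Lgals1, which chose the group, the median change of the other 9 was -1.32.

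**Figure D1:**
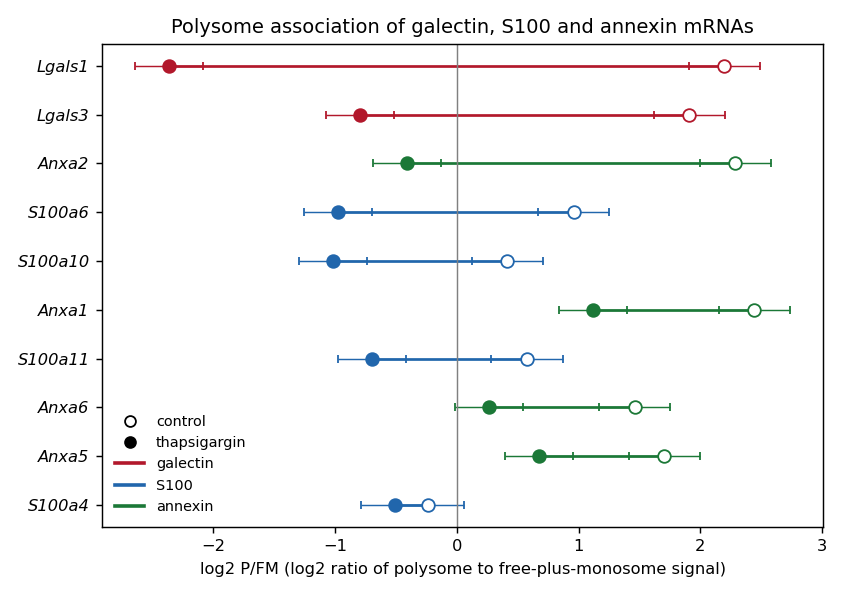
log2 P/FM (x axis) of each of the 10 mRNAs (y axis) in control cells (open circles) and after thapsigargin (filled circles), ordered by the change; bars are the median SD between probes of one mRNA, 0.29 in control and 0.28 in stressed cells. Lgals1 went from 2.20 to -2.36, Anxa1, Anxa5 and Anxa6 stayed right of 0, and the circles of S100a4 lay within the bars of each other.

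Lgals1 (NM_008495) encodes galectin-1, a galectin that pairs with itself and is abundant in fibroblasts and other mesenchymal cells. Its P signal was 203040 in control and 51408 in stressed cells, and its FM signal was 44264.5 in control and 264371 in stressed cells. Without normalization the fractions thus changed places, with P the higher in control cells and FM the higher in stressed cells. P made up 82.1% of the summed signal of both fractions in control cells and 16.3% in stressed cells. In log2 P/FM this was 2.20 and then -2.36, a change of -4.56, which is the second-lowest of the 10033 coding mRNAs and the value that chose the group. FM was not the higher fraction in stressed cells with the scanner-processed signals (log2 P/FM of 0.042) and with spike-in scaling (0.59).

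Both fractions contributed to the change of Lgals1. Its P signal was 3.95-fold lower and its FM signal 5.97-fold higher in stressed cells, while A differed by 0.30, close to the median of all mRNAs. As a share of all transcript signal in a channel, it went from 0.747% to 0.258% of the P signal and from 0.109% to 0.443% of the FM signal. Lgals1 was one of 3 members, with S100a4 and S100a6, whose spots were read at the low scanner gain and scaled up in every channel. Of 272 coding mRNAs with such a reading in any channel, 1 had a lower change than Lgals1 and 270 a higher one.

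Lgals3 (NM_010705) encodes galectin-3, which carries a proline-rich tail beside its sugar-binding domain and forms lattices on glycoproteins. The P signal was 16981 in control and 7795 in stressed cells, and its FM signal 4521 and 13521. As for Lgals1, P was the higher fraction in control cells and, without normalization, FM in stressed cells. It went from 1.91 to -0.79 in log2 P/FM, and the change of -2.70 lay at percentile 3.68 of all mRNAs. Its A changed by 0.23. With the scanner-processed signals, loess, spike-in scaling and channel totals, log2 P/FM in stressed cells was 0.48, 0.14, 2.16 and 0.79.

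The S100 mRNAs started lower than the galectins, except that with the scanner-processed signals S100a6 was at 2.08 and Lgals3 at 1.89. S100a6 (NM_011313), which encodes calcyclin, a dimer found in dividing fibroblasts, had a P signal of 71076 in control and 35126 in stressed cells. Its FM signal was 36547 in control and 68892 in stressed cells, so that P and FM exchanged rank here too without normalization. The ratio, as log2 P/FM, was 0.96 and -0.97, a change of -1.93. With the scanner-processed signals, loess, spike-in scaling and channel totals, S100a6 in stressed cells was at 1.02, 0.42, 1.98 and 0.61.

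S100a4 (NM_011311), known as fibroblast-specific protein and as a partner of myosin, behaved otherwise. In P it gave a signal of 164670 in control and 100791 in stressed cells, and its FM signal was 193636 and 142946. Without normalization FM was above P on both arrays, and both signals were lower in stressed cells. With the scanner-processed signals P was above FM on both, at log2 P/FM of 1.75 and 1.87. The same held with spike-in scaling (0.17 and 2.45) and with channel totals (0.34 and 1.08). After loess P was above FM in stressed cells only (1.16). Without normalization log2 P/FM was -0.23 and -0.50, and the change of -0.27 was smaller than the SD between probes. Relative to the median of all mRNAs this change was 0.44, and A changed by -0.57, at percentile 3.49 of all mRNAs.

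The probes of S100a4 and S100a6 lie 8257 bases apart on chromosome 3, where many S100 genes stand side by side, and both were read at low gain. Their changes of -0.27 and -1.93 differed by far more than the SD between probes. Of the 272 mRNAs with a low-gain reading, 242 had a lower change than S100a4 and 138 a lower change than S100a6.

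S100a10 (NM_009112) encodes p11, the S100 protein that no longer needs calcium and that holds a pair of Anxa2 molecules together. Its P signal was 6562 in control and 3972 in stressed cells, and its FM signal was 4922 and 8043. From 0.41 in control cells, log2 P/FM went to -1.02, a change of -1.43, while A differed by -0.0079. Without normalization S100a10 and its partner Anxa2, whose values follow, thus both had less P and more FM signal, Anxa2 with the larger change. This was also so for 44.5% of all mRNAs. The change of S100a10 was 0.07 with the scanner-processed signals, 0.17 after loess and 1.12 with spike-in scaling.

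S100a11 (NM_016740), the S100 protein that docks onto Anxa1, was the member with the clearest difference in A. Its P signal was 6414 in control and 1504 in stressed cells, and its FM signal was 4304 and 2436. Both fractions held less of it after thapsigargin, P by 4.26-fold. Its A changed by -1.46, and it was the single member lower by 1 or more in A, as were 0.698% of all mRNAs. With log2 P/FM at 0.58 and -0.70, the change was -1.27. The probes of S100a11 and S100a10 lie 38360 bases apart on chromosome 3, and their changes in log2 P/FM differed by less than the SD between probes while their changes in A did not.

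**Figure D2:**
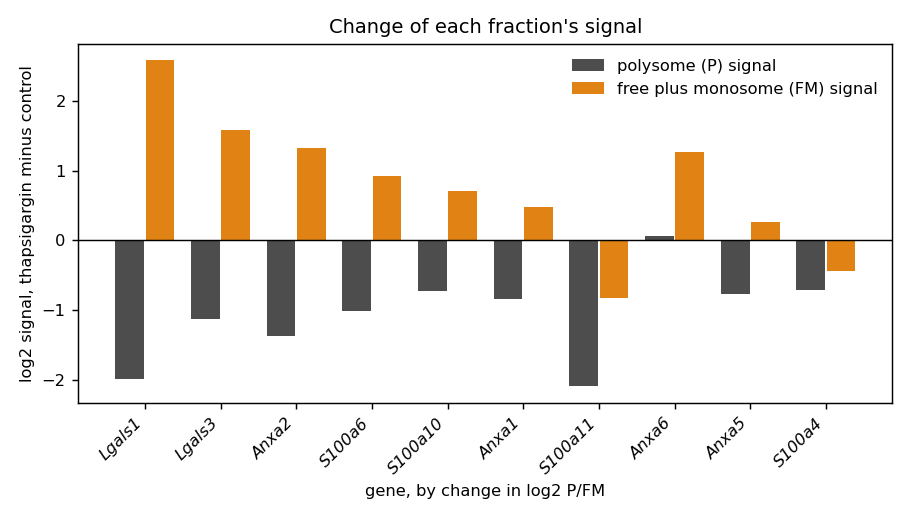
Change in log2 signal (y axis, thapsigargin minus control) of the P fraction (dark bars) and the FM fraction (orange bars) for each of the 10 mRNAs (x axis), ordered by their change in log2 P/FM; 1 array per condition, so no error bar is drawn. The P bar points down and the FM bar up for 7 of the 10, both bars point down for S100a11 and S100a4, and both point up for Anxa6.

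Anxa2 (NM_007585) encodes annexin A2, which links membranes to actin and, with S100a10, sits at the cell surface. On the first probe its P signal was 3088 in control and 1136 in stressed cells, and its FM signal was 548 and 1252. On the second probe P was 7120 and 2873, and FM was 1685 and 4605. The probes gave changes of -2.63 and -2.76, so that the value rests on separate stretches of the transcript. The average of both probes was a log2 P/FM of 2.29 ± 0.29 before and -0.41 ± 0.38 after thapsigargin, a change of -2.70 ± 0.09 (SD over 2 probes). This was the same size of change as that of Lgals3.

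Anxa1 (NM_010730) encodes annexin A1, an anti-inflammatory protein induced by glucocorticoids. The array gave it a P signal of 18727 in control and 10462 in stressed cells, and an FM signal of 3444 and 4816. P stayed the higher fraction on both arrays, at 84.5% of the summed signal in control and 68.5% in stressed cells. Its log2 P/FM was 2.44 and 1.12, at percentiles 99.1 and 94.5 of all mRNAs, a change of -1.32. Anxa1 and Anxa2 began within the SD between probes of each other, and in stressed cells they stood 1.53 apart.

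Anxa5 (NM_009673) encodes annexin A5, the protein widely used to stain phosphatidylserine on dying cells. Polysomes gave a signal of 10726 in control and 6280 in stressed cells, and its FM signal was 3290 and 3943. P was again the higher fraction on both arrays. In log2 P/FM it stood at 1.70 and 0.67, a change of -1.03, which was -0.32 relative to the median of all mRNAs.

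Anxa6 (NM_013472) encodes annexin A6, a large annexin with a doubled core that is found on endosomes. Its P signal was 154 in control and 161 in stressed cells, and its FM signal was 55.9 and 134.0. Of the 10 mRNAs it was the one whose P signal was not lower, and the change came from the FM side. Its log2 P/FM was 1.46 and 0.27, a change of -1.19, with A higher by 0.66. A second probe carries the name Anxa6 but a cDNA accession. It was not well above background in P on either array, nor in FM in stressed cells. Its ratio is therefore not given by itself and enters only where both probes were averaged. The change of Anxa6 depended on the background correction, and was 0.22 with normexp at an offset of 50 and -0.73 both with normexp fitted to negative controls and with no subtraction. With both probes averaged it was -0.47, so that the threshold of -0.8 was met in none of these 4 settings.

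A total of 7 members had both a lower P and a higher FM signal in stressed cells, as did 44.5% of all mRNAs. A was lower in 7 and higher in 3, whereas it was lower in 23.2% of all mRNAs, and after centring of A its median change went from -0.04 to -0.44. No member was higher by 1 or more in A, as 11.7% of all mRNAs were.

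By the size of the change without normalization, Lgals1 stood apart from all others by 1.86. Lgals3 and Anxa2 followed and did not differ from each other beyond the SD between probes. S100a6 came next, separated from its neighbours on both sides. S100a10, Anxa1, S100a11, Anxa6 and Anxa5 followed, each within that SD of the next, and S100a4 stood apart at the other end. The order differed in some other settings. With the scanner-processed signals Anxa6 (-1.20) lay below S100a6 (-1.05), and after loess Anxa6 (-1.03) lay below Lgals3 (-0.94).

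The change was larger for brighter spots across all mRNAs. Between mean A of 5.5 and 7 its median was -0.22, between 11 and 13 it was -1.71, and between 15 and 18 it was -1.93. Each member was therefore set beside the mRNAs within 1 unit of its own mean A. Lgals1 had a lower change than all 32 such mRNAs, whose median was -2.05. S100a4, at the other extreme, had a higher change than all 11 mRNAs in its range, whose median was -2.45. Only 1 coding mRNA had a higher mean A than S100a4, so its range held mostly dimmer mRNAs.

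Anxa2 stood at -1.13 relative to the median of its range, and 11.8% of 1259 mRNAs there had a lower change. Lgals3 and Anxa6 stood at -0.84 and -0.83 relative to the median of their ranges, where 22.0% and 23.1% of the mRNAs had a lower change. The other 6 lay above it, from S100a6 at 0.11 to S100a4 at 2.18. Anxa5, Anxa1, S100a11 and S100a10, with changes below -1, were thus higher than most mRNAs of like signal, 60.6% to 76.5% of which had a lower change.

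**Figure D3:**
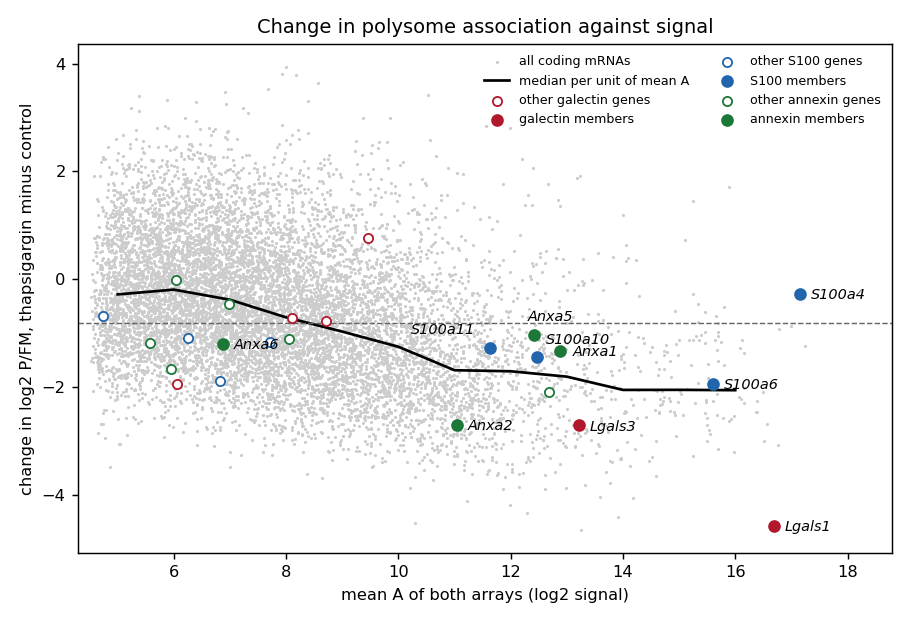
Change in log2 P/FM (y axis, thapsigargin minus control) against mean A of both arrays (x axis, log2 signal) for 10033 coding mRNAs (grey), the 10 members (filled, named) and the other galectin, S100 and annexin genes with every signal well above background (open); the black line is the median per unit of mean A, drawn where a unit holds at least 20 mRNAs, and the dashed line is -0.8. Lgals3, Anxa2 and Anxa6 lie below the black line, Lgals1 and S100a4 lie beyond its right end at changes of -4.56 and -0.27, and the members cover mean A from 6.87 to 17.2.

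The scaling of the arrays set the sign of several members. Lgals1, Lgals3 and Anxa2 had a change below 0 in all 17 alternative settings, and Lgals1 was the lowest member in each. The change of S100a4 was above 0 in 6 of them, with the scanner-processed signals (0.11) and their log ratio (0.11), after loess (2.08), after centring (0.33), with channel totals (0.74) and with spike-in scaling (2.28). For Lgals1, Lgals3, Anxa2 and S100a4 many of these settings are no separate check. The authors' values, the filters, the outliers kept and the units of probes repeated the main values. The log ratio repeated the processed signals. S100a10, Anxa1 and Anxa5 turned above 0 with the processed signals (0.07, 0.05 and 0.34) and their log ratio, after loess (0.17, 0.34 and 0.53) and with spike-in scaling (1.12, 1.23 and 1.52). S100a6 and S100a11 did so after loess (0.24 and 0.03) and with spike-in scaling (0.62 and 1.28). Relative to all mRNAs the median of the 10 lay below in each scaling other than loess, where it was 0.25 above.

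**Figure D4:**
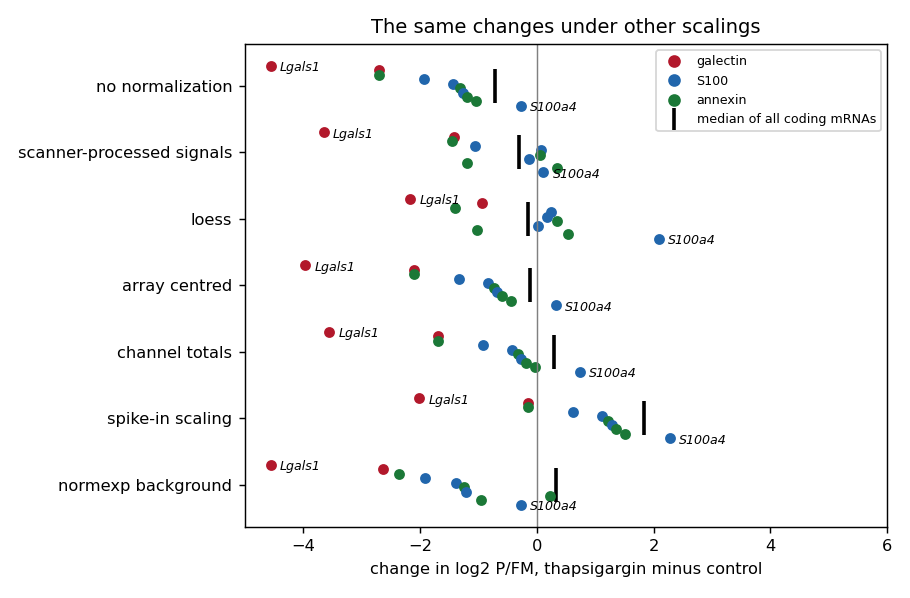
Change in log2 P/FM (x axis, thapsigargin minus control) of the 10 mRNAs (circles, coloured by family) under 7 treatments of the signals (y axis); the black bar is the median of all coding mRNAs under the same treatment. Lgals1 is the leftmost circle in every row, from -4.56 without normalization to -2.01 with spike-in scaling, and S100a4 is the rightmost in each row except those of the scanner-processed signals and normexp.

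By family, the galectins Lgals1 and Lgals3 had a median change of -3.63, which stayed below 0 in every setting and rests on these 2 genes. The 4 S100 members had a median of -1.35, which was -0.032 with the processed signals and their log ratio, -0.76 after centring, -0.34 with channel totals, 0.20 after loess and 1.20 with spike-in scaling. The 4 annexin members had a median of -1.26, which was -0.58 with the processed signals and their log ratio, -0.66 after centring, -0.25 with channel totals, -0.35 after loess and 1.29 with spike-in scaling. In stressed cells the median log2 P/FM was -1.58 for the galectins, of which Lgals3 at -0.79 lay near the S100 median of -0.83, and 0.47 for the annexins. With the processed signals these medians were 0.26, 0.40 and 0.98.

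The list of other galectin genes, which takes in the galectin-3 binding glycoprotein Lgals3bp, had 9 on the array, of which 5 had A above 4.5 on both arrays and 4 were well above background throughout. Lgals9, a galectin with a pair of sugar-binding domains, went from 2.42 to 0.48, a change of -1.93. Lgals8, of the same build, changed by -0.77, and Lgals3bp by -0.72. Lgalsl, a galectin-like protein, went the other way with 0.78. Of the 5, 1 had a change of -0.8 or lower, as had 47.0% of all coding mRNAs.

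Among the other S100 genes, 11 were on the array, 5 passed the filter on A and 4 were well above background throughout. S100a16 went from 2.12 to 0.24, a change of -1.88. S100a13, which takes part in the export of growth factors without a signal peptide, changed by -1.16, S100a3 by -1.08 and S100b by -0.68. The median of the 5 was -1.08, and 3 of them were at -0.8 or lower, beside 47.0% of all coding mRNAs.

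The other annexins numbered 8 on the array, and all 6 above the filter were well above background throughout. Anxa3 went from 2.38 to 0.30, a change of -2.08, and Anxa11 from 2.28 to 0.63, a change of -1.66. Anxa9 changed by -1.18, Anxa4 by -1.10, Anxa8 by -0.45 and Anxa7 by -0.02. Without normalization 5 of these 6 were above 0 in stressed cells, all but Anxa9 at -2.09. Of all coding mRNAs, 37.4% were at or above 0 there. The levels of these 6 under other scalings are not given here. The median of the 6 was -1.14, and 4 were at -0.8 or lower, beside 47.0% of all coding mRNAs.

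Proteins linked to calcium binding, such as calpains and copines, were counted as a list, with 20 accessions above the filter. Their median change was -1.42, with 13 of 20 at -0.8 or lower, beside 47.0% of all coding mRNAs. The lowest was Cpne2, a copine, at -2.85. The middle pair was Capn1, a calpain subunit, at -1.48 and Plscr3, a scramblase, at -1.36, with an FM signal in stressed cells that was not well above background.

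Binding partners of these families, among which Lgals3bp is counted again, had 15 accessions above the filter. Their median change was -0.38, and 5 of 15 were at -0.8 or lower, as were 47.0% of all coding mRNAs. The lowest was Tsg101, a sorting protein of the endosome, at -2.20, with an FM signal in control cells that was not well above background. The middle one was an accession of Pdcd6ip, which encodes the membrane-repair protein ALIX, at -0.38, while the other Pdcd6ip accession was at 1.51. The highest was an accession of Ahnak (NM_009643), the giant scaffold that binds Anxa2 with S100a10, at 2.49, while the other Ahnak accession (NM_001039959) was at -0.95.

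The 3 coding mRNAs nearest to Anxa2 over the 4 log2 signals of both arrays were Ldhb, Rab1b and Alad, at distances of 0.32, 0.34 and 0.37. Their changes were -3.27, -2.49 and -2.96. Lgals1 had no such neighbours. The 3 mRNAs nearest to it, Cox6a1, Aldoa and H2ac10, stood 1.75, 1.80 and 1.85 away, with changes of -3.19, -2.52 and -0.92. Within 1 unit of mean A lay 32 mRNAs for Lgals1 and 1259 for Anxa2. Whether this difference sets the distances was not tested.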

How the data were processed

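NIH3T3 control and thapsigargin-treated cells were each measured on 1 two-colour Agilent array, both on 1 slide read in 1 scan, with groups as labelled. Per the labels, equal volumes of both fractions, 300 ng of RNA in total, were labelled. The study's methods place the equal volumes at hybridization, with RNA labelled in the proportions found in the fractions. The deposited spot and background intensity values came from Feature Extraction 10.7.1.1, without normalization. The deposited files also hold processed intensity values after dye normalization, flags, and a log10 ratio of both. The authors deposited a table of log2 P/FM values, which equalled those computed here for all 10 members within 0.001.

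Here the mean signal of a spot was reduced by its median local background and floored at 0.5, as the study's methods describe. No normalization was applied, since the study kept the proportions of RNA in the fractions. The 295 transcript spots flagged as outliers (0.680%) were left out, none of them of a member. Spots were averaged per probe, then probes per RefSeq accession. Coding mRNAs had accessions starting with NM. Of 18743, 10033 had A above 4.5 on both arrays, above all 153 negative control spots. Symbols came from a RefSeq table of another assembly, used for names only, which matched 98.3% of accessions. Positions are those of the deposited files. Sequences are copied from the array file, for probes taken from general knowledge of these transcripts to lie in coding sequence, which no table used here checked, and 6 of the 12 probes were not written out.

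The members, lists and thresholds were chosen with earlier results of these data known. Named are all members, the other family genes with A above 4.5 and both channels well above background on each array, the lowest, middle and highest of the calcium-binding and partner lists (the highest of the former is not reported here), and the 3 mRNAs with the smallest Euclidean distance to Lgals1 and to Anxa2. The second Ahnak accession and NM_009643 were set side by side after their values were seen. The steps were tested on simulated data. Alternatives were normexp (offset 50, or fitted to negative controls), no background subtraction, median signals, processed signals and their log ratio, the authors' log2 values, loess, centring of log2 P/FM or A, spike-in scaling, filters of A above 5.5 or 7 or on background, outliers kept, and other units of probes. Scaling by channel totals, leaving out Lgals1 and leaving out members read at low gain were added after seeing the data. R 4.3.3 with limma 3.58.1 and Python 3.11.15 were used.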

Additional observations from a re-analysis of the deposited data

How the results depend on the processing

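No paired analysis was possible because each condition had 1 array. For the same reason no array could be left out, and the spread between preparations is unknown. The median change in log2 P/FM of the 10 mRNAs, -1.38, turned to 0.0982 after loess and to 1.17 with spike-in scaling. It was -0.59 with the processed signals and with their log ratio of the scanner software, -0.78 after centring and -0.37 with channel totals. The number with a change of -0.8 or lower, 9 beside 47.0% of all coding mRNAs, was 5 with the processed signals (33.3% of all), their log ratio (32.6%) and centring (28.3%), 4 after loess (27.0%) and with channel totals (17.7%), and 1 with spike-in scaling (0.638%). It was 8 with both forms of normexp (13.4% and 19.99%), no background subtraction (20.4%), A above 7 (59.9%, Anxa6 left out) and all probes of the gene name. The median control log2 P/FM, 1.58, was 1.29 with normexp at offset 50, 0.97 after loess, 1.27 after centring, 1.99 with spike-in scaling and 2.16 with channel totals. The median change in A, -0.039, was -0.43 with the processed signals and -0.44 after centring of A.

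Single values of at least 0.8 in size, or medians of a family, changed sign as follows. With normexp at offset 50, Anxa6 had a change of 0.22 and a control log2 P/FM of -0.041, and the latter was -0.032 with all probes of the gene name. With the processed signals and with the log ratio alike, log2 P/FM in stressed cells was 0.042 for Lgals1 and 1.02 for S100a6, and the changes of S100a10, Anxa1 and Anxa5 were 0.070, 0.046 and 0.34. After loess the S100 median was 0.20, the changes of S100a6, S100a10, S100a11, Anxa1 and Anxa5 were 0.24, 0.17, 0.028, 0.34 and 0.53, and S100a6 in stressed cells was at 0.42. With spike-in scaling the S100 and annexin medians were 1.20 and 1.29, the changes of S100a6, S100a10, S100a11, Anxa1, Anxa5 and Anxa6 were 0.62, 1.12, 1.28, 1.23, 1.52 and 1.36, and log2 P/FM in stressed cells was 0.59 for Lgals1, 1.98 for S100a6 and 1.94 for S100a10. With channel totals S100a6 and S100a10 in stressed cells were at 0.61 and 0.57. Without the members read at low gain the median change of the other 7 was -1.32, and all 7 were at -0.8 or lower. Among values under 0.8 in size, or under 1 for A, 40 further ones changed sign, 10 of log2 P/FM in control cells, 18 in stressed cells, 6 of its change (all of S100a4) and 6 of the change in A (of Lgals1, Lgals3 and Anxa6). Those in stressed cells include Lgals3, S100a4 and Anxa2 with the processed signals (0.48, 1.87 and 0.13), loess (0.14, 1.16 and 0.084), spike-in scaling (2.16, 2.45 and 2.54) and channel totals (0.79, 1.08 and 1.17). The change in A of S100a4, -0.57, was -1.005 with the processed signals. The cause of these differences was not tested. Centring, spike-in scaling and channel totals shift all mRNAs of an array by 1 value, so the order of the members does not depend on them.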
